A study of Solanum lycopersicum with 6 samples.

Results

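The genes described here stood well above the wild type in both kinds of leafless tomato shoot apex. A gene was taken when its normalized count was at least 50 in every one of the 4 leafless libraries and its lowest leafless value was at least 4 times the higher wild-type (WT) value plus 1. Of 34722 tomato genes in the table, 123 met this rule (0.354%). The members were chosen by these values alone. RNA was sequenced from the shoot apex of Solanum lycopersicum seedlings raised for 14 to 18 days under greenhouse conditions, with acetone fixation before dissection. The 6 libraries formed 3 groups of 2. The WT group was the wild-type apex, dissected with the 2 youngest leaf primordia around the meristem. The lfs group was the meristem of the leafless (lfs) mutant, and the TIBA group was the meristem of the pin-shaped shoot that forms after spraying with 1 mM TIBA (triiodobenzoic acid). The labels name neither the tomato line nor the lfs allele, and they do not say whether the replicates were grown apart, so the spread that p-values rest on may be technical.

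As background, the shoot apical meristem is the small dome of dividing cells from which leaves arise on the flanks, at sites where the hormone auxin accumulates. TIBA blocks the polar transport of auxin, and a meristem deprived of that transport grows on as a naked pin. LFS encodes an AP2-type transcription factor, and plants lacking it form no leaves. The comparison of the mutant and the drug therefore sets a genetic and a chemical leafless apex side by side, with the leaf-forming apex as the common reference.

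Libraries held 17640302 to 26054787 gene-assigned reads. Neither the deposited table nor the reference gene table pairs the Solyc identifiers with gene names or functions (0 of 34722 matched), so genes are given by identifier, LFS was not used to check the labels, and defining markers of the tissue could not be looked up. The WT samples held leaf primordia and the leafless samples did not. Fewer cells of a type and less RNA per cell cannot be told apart in such bulk tissue, and the tissue dissected cannot be told apart from the leafless state. Normalized counts are gene counts divided by 1 size factor per library; they are not corrected for gene length, so they compare libraries and do not rank genes.

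In WT the 123 genes had mean normalized counts from 0 to 1068 with a median of 17.5, against a median of 399 over the 19807 genes tested. In lfs their means ran from 50.9 to 11141 (median 321) and in TIBA pins from 56.4 to 21629.5 (median 330.3), where the medians over all genes tested were 429 and 428. The members were thus well under the median gene in WT and nearer to it in the leafless apices, on a scale that is not per gene length. Because the rule demanded that contrast, it is a description and carries no test. The higher WT value was under 10 for 28 members, from 10 to under 100 for 73 and at least 100 for 22. The ratio used by the rule, lowest leafless value over higher WT value plus 1, had a median of 6.42. It lay from 4 to under 5 for 30 genes, from 5 to under 10 for 60, from 10 to under 50 for 25, and at 50 or more for 8.

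**Figure D1:**
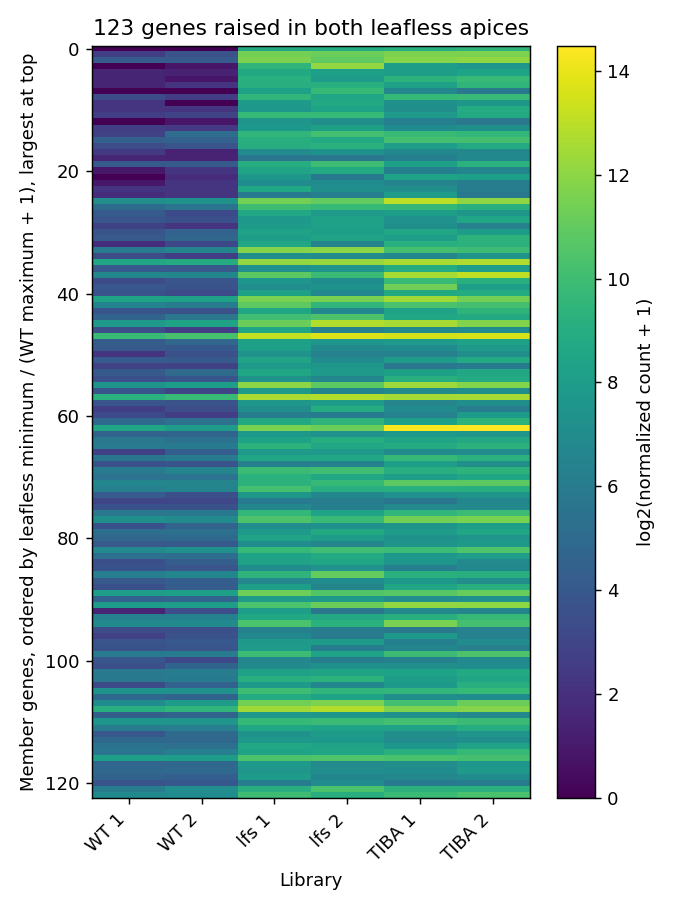
Each row is 1 of the 123 genes and each column 1 library; colour is log2(normalized count + 1), with rows ordered by the ratio of the leafless minimum to the WT maximum plus 1. Within every row both WT cells are darker than all 4 leafless cells, with the brightest cells, near 14 on this scale, in the TIBA columns of Solyc10g075110.1.

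The 8 genes with the largest ratios had from 0 to 38 reads over both WT libraries and well over the minimum of 50 in most leafless libraries. Solyc04g082910.1 stood at 0 and 0 in WT, 422 and 470.0 in lfs and 546 and 693 in TIBA pins. Against a floor of 3 reads in each WT library it was at least 169-fold higher in lfs and at least 234-fold higher in TIBA pins. Its 4 leafless values lay close together, with both lfs values under both TIBA values. Solyc07g041720.1 had 5.39 and 12.1 in WT, 2842 and 2432 in lfs and 3095 and 3141 in TIBA pins. The WT mean was 8.76 ± 4.77 (SD, n = 2), the lfs mean 2637 ± 290.1 (SD, n = 2) and the TIBA mean 3118 ± 32.4 (SD, n = 2), so that lfs exceeded WT 301-fold and TIBA exceeded it 356-fold. Of the 8 genes it had the smallest relative spread over the leafless libraries, from 2432 to 3141. Solyc04g070970.2 had 17.1 and 16.5 in WT, 3099 and 1929 in lfs and 3749 and 4319.8 in TIBA pins, a 150.0-fold excess in lfs and 241-fold in TIBA pins. All WT values of these 3 genes were far under every leafless value.

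Solyc08g081400.2 counted 1.8 and 1.73 in WT, 449.7 and 284 in lfs and 279.6 and 341 in TIBA pins. Solyc05g006990.2 counted 1.8 and 3.47 in WT, 529.7 and 565 in lfs and 311 and 698 in TIBA pins. In both genes the lfs and TIBA ranges overlapped, and the TIBA means were 176-fold and 192-fold over WT. Solyc04g050620.2 was at 1.8 and 0.867 in WT, 584 and 242 in lfs and 663 and 864 in TIBA pins. From reads pooled within each group, 3 of them in WT, its ratio to WT was 298 in lfs (exact 95% interval 102 to 1449) and 563 in TIBA pins (192 to 2734). These intervals, and the bounds, reflect counting alone. Both TIBA libraries lay above both lfs libraries in this gene, and lfs replicate 2 was its lowest leafless library.

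The remaining genes of the 8 had the higher mean in lfs. Solyc06g062370.2 was at 0 and 0.867 in WT, 720.2 and 4474 in lfs and 280.5 and 193 in TIBA pins, with 1 read over both WT libraries. From reads pooled within each group, its ratio to WT was 6355 in lfs (exact 95% interval 1140.2 to 251059.5) and 555 in TIBA pins (99.1 to 21954). Its lfs libraries differed widely from each other, and limma did not call the lfs to TIBA difference (log2 difference of 2.94, SE 0.79, limma adjusted p = 0.0845). The authors' deposited table did have it (log2 difference of 3.46, adjusted p = 0.00764), so the call depends on the test. Solyc05g056620.1 was at 0 and 0 in WT, 307 and 820.4 in lfs and 102 and 53.9 in TIBA pins. Without a read in WT, it was at least 213-fold higher in lfs and at least 29.4-fold higher in TIBA pins.

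**Figure D2:**
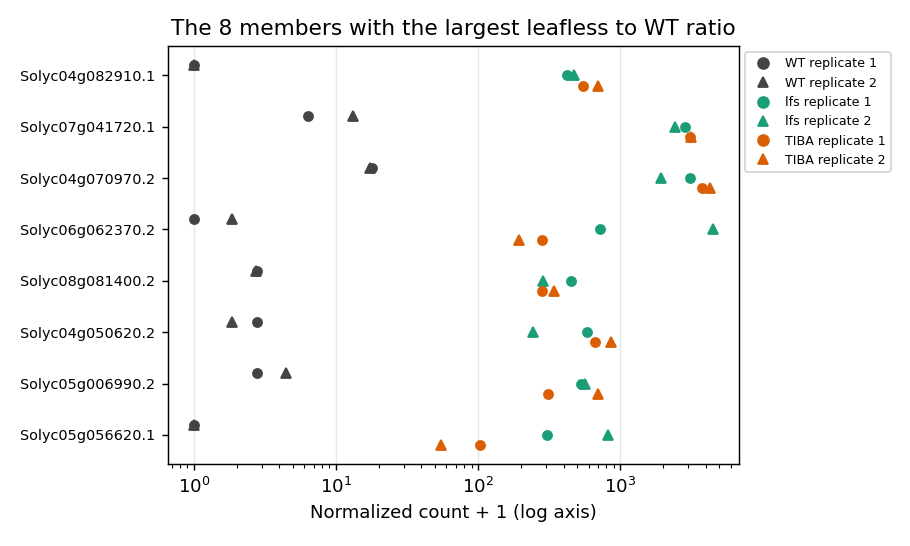
Normalized count plus 1 (log axis) of the 8 genes with the largest leafless to WT ratio, with 1 symbol per library; circles are replicate 1 and triangles replicate 2. Every WT symbol lies left of 20, every leafless symbol right of 50, and the lfs symbols of Solyc06g062370.2 and Solyc05g056620.1 lie right of their TIBA symbols.

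Few members lacked WT reads entirely. No WT read was found for 2 genes, Solyc04g082910.1 and Solyc05g056620.1, and 1 to 3 reads in all for 4, namely Solyc06g062370.2, Solyc04g050620.2, Solyc12g009800.1 and Solyc07g005370.2. Solyc12g009800.1 stood at 0 and 0.867 in WT, 187 and 139 in lfs and 73.6 and 51.5 in TIBA pins, and Solyc07g005370.2 at 0 and 2.6 in WT, 205 and 56.1 in lfs and 331 and 284 in TIBA pins. The first was higher in lfs than in TIBA pins in every library and the second lower. The members with the most leafless counts, besides Solyc10g075110.1 described with the TIBA genes and Solyc03g121060.2 described with its neighbour, were read deeply in WT as well. Solyc06g076140.2 had 907 and 1229.6 in WT, 9084 and 13198 in lfs and 11441 and 12548 in TIBA pins, a 10.4-fold excess in lfs and 11.2-fold in TIBA pins, with overlapping leafless ranges. Solyc07g043500.1 had 595 and 895 in WT, 6462 and 7082 in lfs and 5887 and 6011 in TIBA pins, and Solyc04g054990.2 had 417 and 480.1 in WT, 4529 and 4835 in lfs and 6273 and 6960.2 in TIBA pins. Their folds over WT were 9.09 and 10.4 in lfs and 7.98 and 14.8 in TIBA pins, and in Solyc07g043500.1 both TIBA values lay under both lfs values while in Solyc04g054990.2 they lay over them.

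The threshold cut through a continuous range of ratios. Just inside it, Solyc02g092590.2 had a ratio of 4.05 from 121 and 133 in WT, 1015 and 542 in lfs and 933 and 1292 in TIBA pins, and Solyc12g096770.1 one of 4.08 from 69.1 and 137 in WT, 562 and 1290.4 in lfs and 630.4 and 612 in TIBA pins. Just outside, Solyc10g083210.1 reached 3.99 from 18.9 and 20.8 in WT, 139.8 and 87 in lfs and 104 and 95.8 in TIBA pins, and Solyc08g066800.2 reached 3.99 from 128 and 152 in WT, 1338 and 609 in lfs and 847 and 1242 in TIBA pins. The ratios on either side of the threshold nearly met. All 123 members entered the fit across all genes, as the rule ensures. The limma test called all 123 higher in lfs than in WT and all 123 higher in TIBA pins than in WT, where 8.9% and 10.8% of all genes tested were called. The rule used these contrasts, so nothing is read from the counts. The authors' deposited table had 121 and 123 of them at an adjusted p under 0.05, against 7.0% and 8.3% of its genes. In the authors' deposited table the exceptions were Solyc01g006720.2 (adjusted p = 0.122 for lfs against WT) and Solyc01g102740.2 (adjusted p = 0.0631).

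Whether the members stood at the same level in the mutant and the drug-treated apex is a contrast the rule did not use directly. It did require both groups to be high, so genes high in a single leafless group were left out. Most were within 2-fold of each other, and a minority differed by several-fold in either direction. The share of all genes tested within 2-fold was not counted, so these counts do not show similarity beyond the background. The lfs and TIBA means were within 2-fold of each other for 86 genes, lfs was over 2-fold higher for 15 and TIBA for 22. The median lfs minus TIBA difference was 0.02 log2 units, as over all genes tested (0.02), with a range from -3.00 to 2.94. The median absolute difference was 0.69 in the members and 0.29 over all genes tested, so the members lay further apart than the typical gene. The members also varied more between replicates, with a median SD of 0.344 log2 units in lfs and 0.32 in TIBA pins against 0.161 and 0.23 over all genes tested. Both lfs libraries exceeded both TIBA libraries in 37 members (30.1%), where 25.3% of all genes tested did so, and the reverse held for 32 (26%), where it was 23.6%. These counts lie near the background.

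Of the 123 members, 12 differed between lfs and TIBA pins (limma, adjusted p under 0.05 over all genes tested), 4 of them higher in lfs, where 1.97% of all genes tested were, and 8 higher in TIBA pins, where 2.64% were. That is 9.76% of the members, where 4.6% of all genes tested were called. At an unadjusted p under 0.05 the test gave 43 members (35%), where 23.1% of all genes tested passed. For the other members a miss of the threshold does not show equal levels in the leafless groups. The count-based edgeR test with TMM called 14 members where it called 4.17% of all genes. DESeq2 on the recovered reads called 33 members (17 higher in lfs, 16 higher in TIBA pins) where it called 9.44% of all genes, and the authors' deposited table had 14 (8 and 6) where it had 5.65%.

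**Figure D3:**
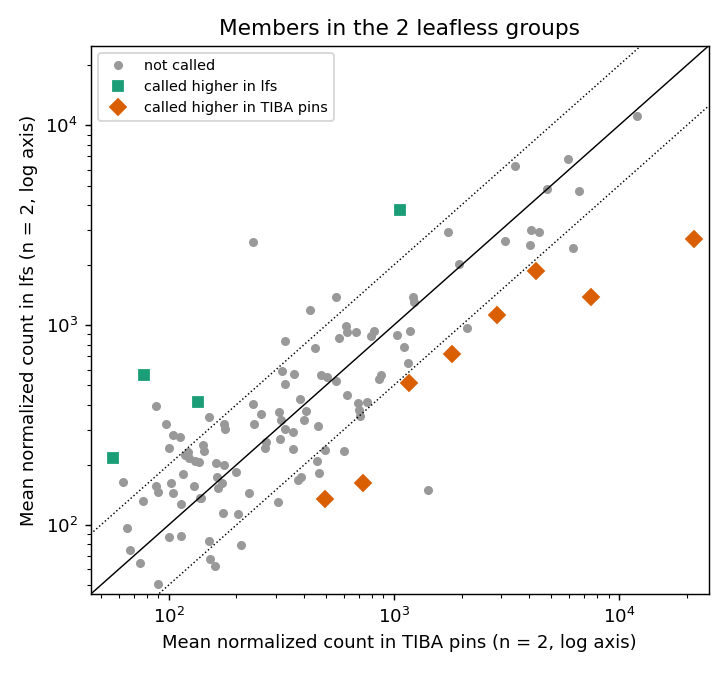
Mean normalized count of each member in lfs (y axis) against TIBA pins (x axis), both on log axes, n = 2 libraries each; the solid line marks equal means and the dotted lines a 2-fold difference. Most points lie between the dotted lines; green squares are the 4 genes called higher in lfs and orange diamonds the 8 called higher in TIBA pins.

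Higher in lfs were Solyc05g056620.1, Solyc06g034290.2, Solyc01g098400.2 and Solyc03g095980.2. Solyc05g056620.1, whose values are given above, was 7.24-fold higher in lfs (log2 difference of 2.74, SE 0.56, limma adjusted p = 0.0418). Its log2 difference was 2.04 with lfs replicate 2 left out and 3.45 with lfs replicate 1 left out, and it was not called in 8 of 17 alternatives, with limma, edgeR and DESeq2 adjusted p-values from 7.29e-06 to 0.239. Solyc06g034290.2 had 6.28 and 6.07 in WT, 229 and 205 in lfs and 50.5 and 62.2 in TIBA pins, 3.85-fold higher in lfs (log2 difference of 1.93, SE 0.33, limma adjusted p = 0.0254). Both groups were tight and far apart in this gene, and the TIBA values sat just over the minimum of 50. Solyc01g098400.2 had 61 and 96.2 in WT, 3579 and 3956 in lfs and 1164 and 968 in TIBA pins, 3.53-fold higher in lfs (log2 difference of 1.82, SE 0.23, limma adjusted p = 0.00888). Solyc03g095980.2 had 27.8 and 23.4 in WT, 485 and 342 in lfs and 141 and 128 in TIBA pins, 3.08-fold higher in lfs (log2 difference of 1.595, SE 0.28, limma adjusted p = 0.0274). In all 4 genes the lfs and TIBA ranges did not overlap.

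Among the genes higher in TIBA pins, Solyc10g075110.1 differed most. It stood at 381 and 258 in WT, 3023 and 2408 in lfs and 20472 and 22787 in TIBA pins, which is 8.5-fold over WT in lfs and 67.7-fold in TIBA pins. The TIBA mean was 7.96 times the lfs mean (log2 difference of -3.00, SE 0.21, limma adjusted p = 0.00134). Solyc01g006720.2 followed the same order, with 97.9 and 99.7 in WT, 1822 and 931 in lfs and 6222 and 8833 in TIBA pins, and was 5.47-fold higher in TIBA pins (log2 difference of -2.51, SE 0.31, limma adjusted p = 0.00887). Solyc01g098740.2 had 8.98 and 13 in WT, 195 and 128 in lfs and 889 and 565 in TIBA pins (log2 difference of -2.15, SE 0.36, limma adjusted p = 0.0229). Solyc01g102740.2 had 10.8 and 13.9 in WT, 171 and 100.01 in lfs and 535 and 459.6 in TIBA pins (log2 difference of -1.91, SE 0.34, limma adjusted p = 0.028). In these genes the mutant lay over WT and under the drug-treated apex, an order that the rule and the choice of genes called higher in TIBA pins require. Solyc06g071820.2 had 149.9 and 120.4 in WT, 1403 and 855 in lfs and 2718 and 3026 in TIBA pins (log2 difference of -1.39, SE 0.24, limma adjusted p = 0.027). The other genes called higher in TIBA pins were Solyc04g071900.2 (log2 difference of -1.34, SE 0.18, limma adjusted p = 0.0105), Solyc09g084480.2 (log2 difference of -1.26, SE 0.26, limma adjusted p = 0.0408) and Solyc06g062430.2 (log2 difference of -1.18, SE 0.19, limma adjusted p = 0.0227), from 2.26-fold to 2.51-fold higher; each also lay near another member in the numbering, and their values by library are given with those neighbours.

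Under all 17 other fits of the limma, edgeR and DESeq2 kind, Solyc10g075110.1, Solyc01g006720.2 and Solyc04g071900.2 were called and the other 9 genes were not always, with adjusted p-values up to 0.0278, 0.049 and 0.049. Of these, the authors' deposited table had Solyc10g075110.1 but neither Solyc01g006720.2 (adjusted p = 0.525) nor Solyc04g071900.2 (0.387); nor did it have Solyc01g102740.2 (0.545), while it held the remaining 9 of the 12. None of the 12 changed sign in these fits. Without lfs replicate 1, where 7 members were called, 5 of the 12 kept the call; Solyc01g098400.2, Solyc01g098740.2, Solyc03g095980.2, Solyc05g056620.1, Solyc06g034290.2, Solyc06g062430.2 and Solyc09g084480.2 lost it. Without lfs replicate 2, 4 members were called, all among the 12 and all higher in TIBA pins: the 3 genes above and Solyc09g084480.2. Without WT replicate 1, and again without WT replicate 2, Solyc01g102740.2, Solyc03g095980.2, Solyc05g056620.1, Solyc06g034290.2 and Solyc09g084480.2 lost the call. Solyc09g084480.2 also lost it without TIBA replicate 1. Leaving out TIBA replicate 2 ended the call for Solyc01g102740.2, Solyc03g095980.2, Solyc05g056620.1, Solyc06g062430.2, Solyc06g071820.2 and Solyc09g084480.2. The lone library left in a group is assumed in these fits to vary like the others.

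**Figure D4:**
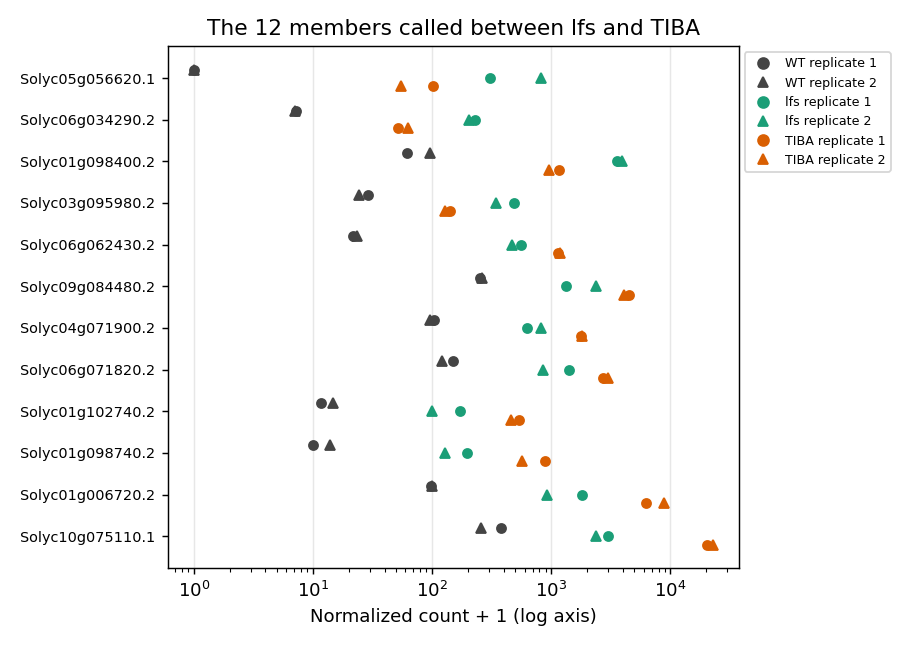
Normalized count plus 1 (log axis) in every library of the 12 members called between lfs and TIBA pins, ordered from higher in lfs (top) to higher in TIBA pins (bottom). In each row the lfs and TIBA symbols occupy separate ranges, and both WT symbols lie to the left of them.

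Replicates of the mutant were far apart for a part of the list. The 2 lfs libraries differed over 2-fold in 28 members (22.8%), against 2.17% of the 15454 genes with at least 50 in all leafless libraries; replicate 1 was the higher in 21 of them and replicate 2 in 7. The TIBA libraries differed over 2-fold in 15 members (12.2%), against 5.07%. Beyond 3-fold the counts were 9 in lfs and 3 in TIBA pins. The library that set the leafless minimum was lfs replicate 2 for 45 genes, TIBA replicate 1 for 36, lfs replicate 1 for 23 and TIBA replicate 2 for 19. Without lfs replicate 2 the rule took 212 genes, and without WT replicate 2 it took 187, all 123 members among them in both cases, which dropping a library from such a rule must give.

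The members were spread over all 12 chromosomes, which the identifiers carry by convention. Chromosome 1 held 17 and chromosome 4 held 16, and chromosomes 7, 8 and 10 held 6 each. Per 100 genes tested, the number of members ran from 0.413 on chromosome 7 to 1.01 on chromosome 5, with 0.982 on chromosome 4.

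Identifiers of neighbouring genes differ by 10 as a rule, so nearness in the numbering stands in for nearness on the chromosome. Some members lay next to each other. Another member lay at most 50 numbers away (5 places) for 12 of the 123 genes, and at most 100 away for 23, in 11 groups, 10 of them pairs. Some gene of the table lay within 50 of 99.1% of all its genes. That share counts any gene, so it is no background for a list of 123. Of the 245 places directly beside a member, 6 held a member (2.45%). Members made up 0.354% of the table and 0.796% of its genes with at least 50 in all leafless libraries. The 6 places came from 3 adjacent pairs, each counted from both sides. No chance value is attached to these shares. Tandem copies of a gene sit side by side in plant genomes, but whether these neighbours are copies was not tested, since no sequence or function is paired with the identifiers here. Near-identical copies, and genes that overlap, can share reads, and how the counting treated them and the read strand is not given in the sources used here.

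Solyc04g071890.2 and Solyc04g071900.2 are consecutive identifiers on chromosome 4. Solyc04g071890.2 had 8.98 and 5.2 in WT, 743 and 377 in lfs and 841 and 909.7 in TIBA pins, and Solyc04g071900.2 had 103 and 94.5 in WT, 623 and 819.6 in lfs and 1797 and 1818 in TIBA pins. Both were higher in both TIBA than in both lfs libraries, but their WT levels differed, so the folds over WT in TIBA pins were 124 and 18.3. The gene before them, Solyc04g071880.2, had 2446 and 2402 in WT, 1922 and 2276 in lfs and 2250.3 and 1986 in TIBA pins. It was not called against WT in lfs (log2 difference -0.21, SE 0.15, limma adjusted p = 0.389) or in TIBA pins (log2 difference -0.20, SE 0.15, limma adjusted p = 0.374).

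Solyc09g084480.2 and Solyc09g084490.2 are consecutive on chromosome 9. Solyc09g084480.2 had 250.5 and 261 in WT, 1329 and 2390.4 in lfs and 4479.8 and 4085 in TIBA pins, and Solyc09g084490.2 had 2.69 and 3.47 in WT, 59.8 and 75.6 in lfs and 247 and 57.5 in TIBA pins. The gene before them, Solyc09g084470.2, had 249 and 209.7 in WT, 305 and 565 in lfs and 1216 and 1049.7 in TIBA pins and was called higher in TIBA pins than in WT (log2 difference 2.30, SE 0.28, limma adjusted p = 0.0039), while its lfs to WT difference was not called (log2 difference 0.86, SE 0.28, limma adjusted p = 0.0922). The TIBA mean was thus the highest of the 3 groups in all 3 neighbours, although the TIBA libraries of Solyc09g084490.2 differed over 2-fold.

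On chromosome 1, Solyc01g091170.2 had 71.8 and 101 in WT, 679.6 and 2100.2 in lfs and 579 and 531 in TIBA pins, and the next identifier, Solyc01g091180.2, had 14.4 and 31.2 in WT, 163 and 246 in lfs and 139 and 184 in TIBA pins. In both, lfs replicate 2 was the highest library. Their outer neighbours Solyc01g091160.2 (270.2 and 269 in WT, 285 and 239.9 in lfs and 233 and 254 in TIBA pins) and Solyc01g091190.2 (1944 and 2297 in WT, 2069 and 2832 in lfs and 1651 and 1461 in TIBA pins) did not pass the test against WT in either group. Reads shared between the pair's members were not tested for.

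A stretch of chromosome 12 held 3 members within 100 numbers. Solyc12g096770.1, given above, and Solyc12g096790.1, with 5.39 and 9.53 in WT, 147 and 493 in lfs and 127 and 68.2 in TIBA pins, enclose Solyc12g096780.1. That gene had 149.9 and 342 in WT, 1416 and 3004 in lfs and 1519.8 and 882 in TIBA pins and rose both in the mutant (log2 difference 3.18, SE 0.49, limma adjusted p = 0.00723) and in the pins (log2 difference 2.35, SE 0.49, limma adjusted p = 0.0187); it missed the rule because its leafless minimum was only 2.57 times the WT maximum plus 1. In all 3 consecutive genes lfs replicate 2 was the highest library and WT replicate 2 exceeded WT replicate 1. The gene before them, Solyc12g096760.1, rose less, from 799.9 and 782 in WT, 1147 and 1233 in lfs and 1189.7 and 1100.0 in TIBA pins (log2 difference 0.59, SE 0.13, limma adjusted p = 0.0248 for lfs and log2 difference 0.53, SE 0.13, limma adjusted p = 0.0295 for TIBA). Solyc12g096870.1, further along, had 10.8 and 24.3 in WT, 119.5 and 152 in lfs and 144 and 133 in TIBA pins.

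The remaining pairs lay further apart in the numbering. Solyc05g009500.2 had 139 and 165 in WT, 2795 and 2084 in lfs and 8230.0 and 4249 in TIBA pins, and Solyc05g009520.1 had 44.9 and 39.9 in WT, 400.1 and 317 in lfs and 194 and 321 in TIBA pins; the identifier between them, Solyc05g009510.1, had no read in any library. The pair differed in direction, with the TIBA mean 2.56 times the lfs mean in the first and 0.717 times in the second, though neither difference was called. Solyc03g121060.2 had 535 and 737 in WT, 5529 and 7068 in lfs and 3260.4 and 3653 in TIBA pins, and Solyc03g121100.2 had 6.28 and 19.1 in WT, 216 and 215 in lfs and 122 and 123 in TIBA pins; in both, both lfs libraries were over both TIBA libraries. On chromosome 6, Solyc06g062370.2 and Solyc06g062430.2 lay 60 numbers apart and had opposite orders of the leafless means. The difference between the leafless groups was called by limma for the second gene only, and in the authors' deposited table for both. Solyc06g062430.2 had 20.6 and 22.5 in WT, 564 and 468 in lfs and 1153 and 1179 in TIBA pins, whereas Solyc06g062370.2 had its higher mean in lfs. Directly after the latter, Solyc06g062380.2 had 0 and 0 in WT, 46.6 and 69.9 in lfs and 0.827 and 0 in TIBA pins, so that reads appeared in the mutant and hardly in the drug-treated apex (log2 difference 5.43, SE 0.69, limma adjusted p = 0.0094 for lfs against TIBA).

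The last 4 pairs lay 70 to 100 numbers apart. Solyc01g098400.2 was paired with Solyc01g098500.2, which had 128 and 255 in WT, 2683 and 3179.9 in lfs and 1135 and 2357 in TIBA pins. Solyc03g095980.2 was paired with Solyc03g096050.2, which had 1.8 and 1.73 in WT, 50.6 and 51.2 in lfs and 73.6 and 107 in TIBA pins. In the first of these pairs both genes had the higher mean in lfs, while in the second the higher mean was in lfs for one gene and in TIBA pins for the other; Solyc01g098500.2 and Solyc03g096050.2 were not called. Solyc04g082910.1 was paired with Solyc04g082830.2, which had 49.4 and 59.8 in WT, 383 and 368 in lfs and 788 and 613 in TIBA pins, and Solyc05g006990.2 with Solyc05g006920.2, which had 17.1 and 10.4 in WT, 204 and 104 in lfs and 156 and 176 in TIBA pins. Both chromosome 4 genes had all TIBA values over all lfs values, and both chromosome 5 genes had overlapping leafless ranges.

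**Figure D5:**
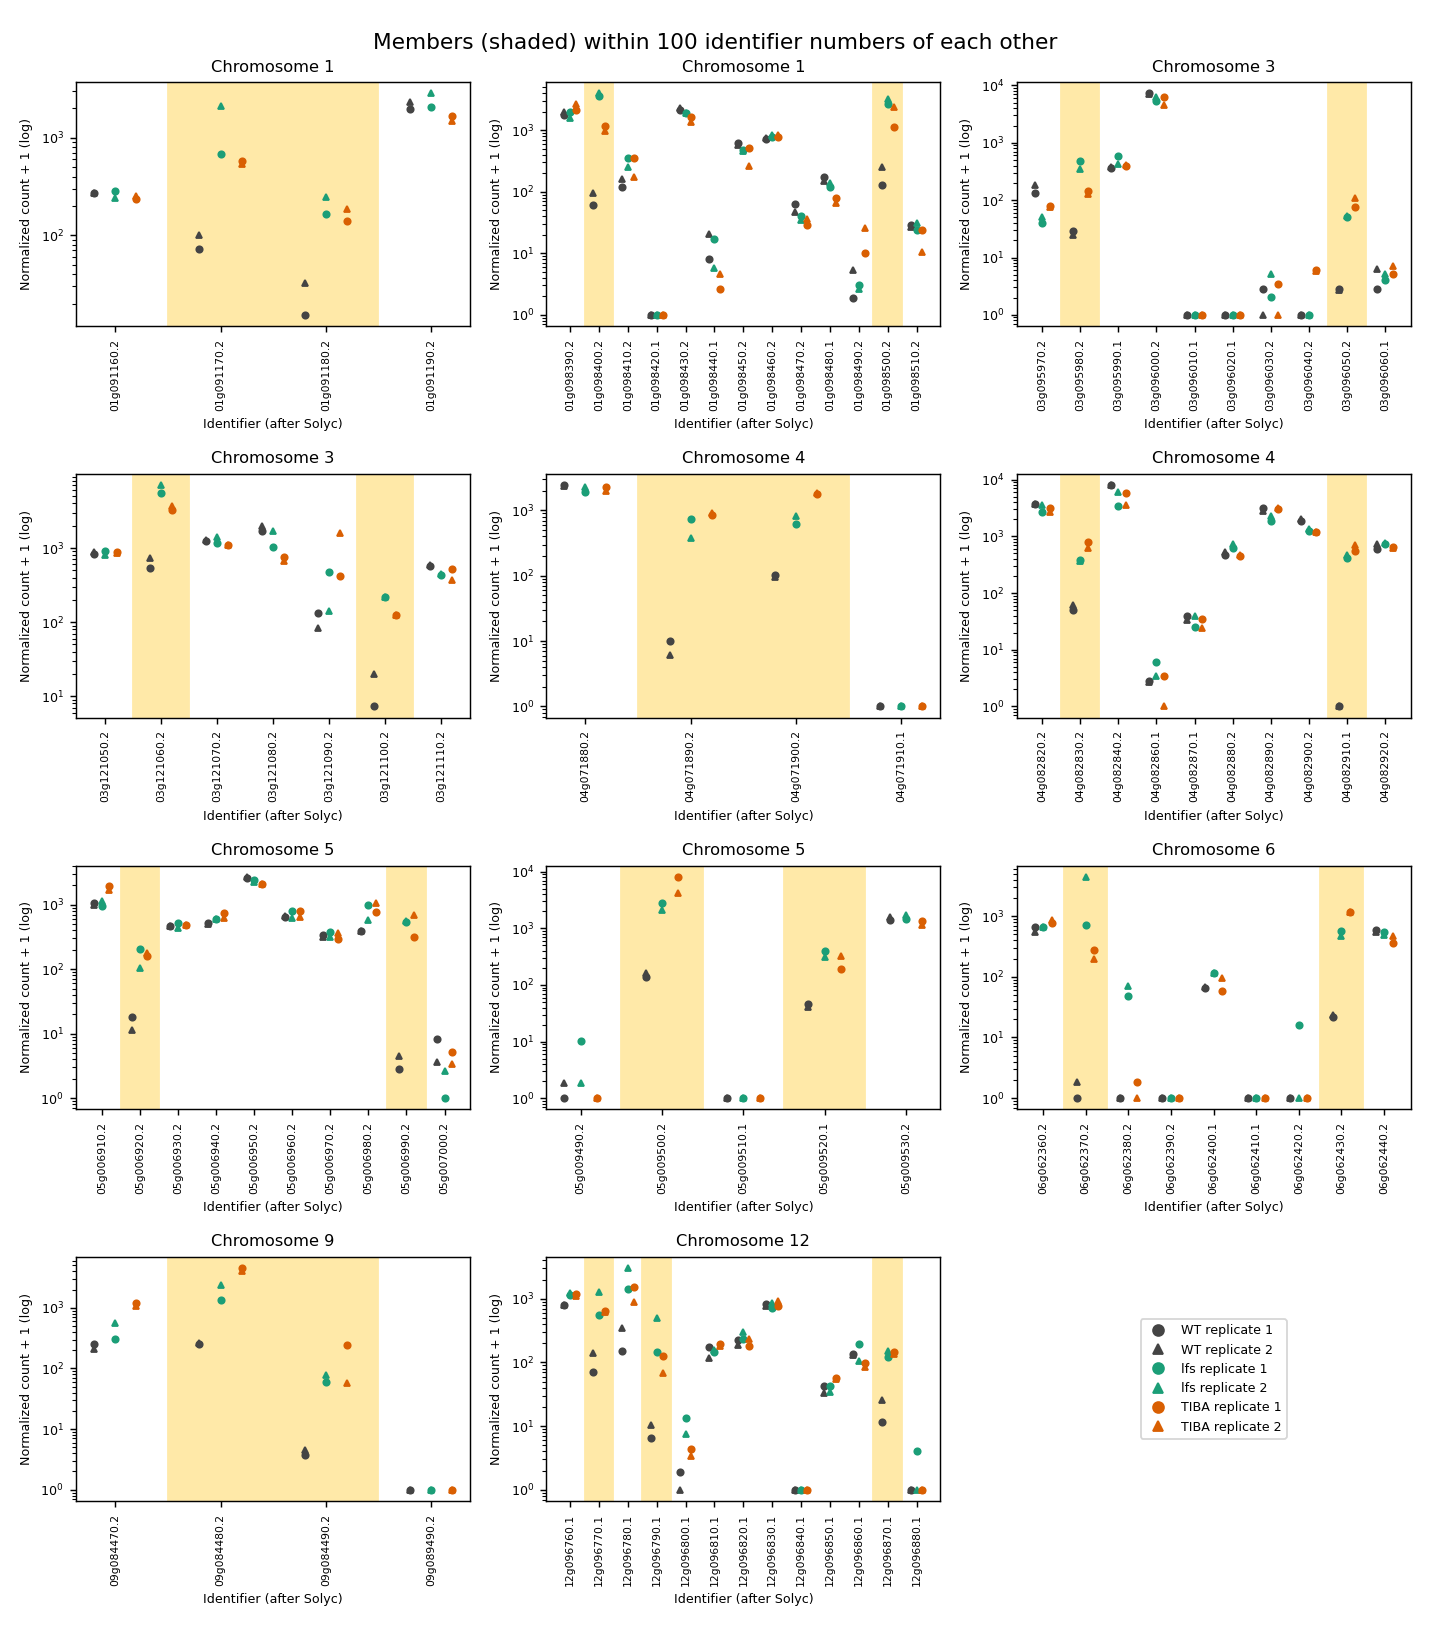
Normalized count plus 1 (log axis) of every gene in the numbering from the one before to the one after each group of members that lie within 100 numbers of each other; members are shaded, grey symbols are WT, green lfs and orange TIBA, circles replicate 1 and triangles replicate 2. In the shaded columns WT lies under the leafless symbols, and many unshaded columns have the 3 groups level, with Solyc12g096780.1 and Solyc09g084470.2 among the exceptions.

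Genes directly beside a member that were not members themselves were higher than WT in a larger share than all genes tested. Of 237 such neighbours 177 were tested, and 22 of them (12.4%) were higher than WT in both lfs and TIBA pins, where 5.34% of all genes tested were (limma, adjusted p under 0.05 in each). Against WT, 29 (16.4%) were higher in lfs and 6 lower, with a median difference of 0.12 log2 units; in TIBA pins 40 (22.6%) were higher and 6 lower, with a median of 0.21. Of all genes tested, 8.9% were higher and 5.29% lower in lfs, and 10.8% were higher and 7.77% lower in TIBA pins. Their medians were -0.0010 and 0.01. The 2 comparisons share the WT libraries, and no test of the difference from other genes was made. Leaving out WT replicate 1 gave 6 that were higher in both, WT replicate 2 gave 7 and lfs replicate 1 gave 12, where the share of all genes tested fell as well, to 1.16%, 1.72% and 2.36%.

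Of the 22 neighbours higher in both, the one with the highest ratio of leafless minimum to WT maximum plus 1, Solyc07g006560.2, missed membership in 1 library. Solyc07g006560.2, beside the member Solyc07g006570.2, had 0.898 and 4.33 in WT, 211 and 208 in lfs and 76.9 and 44.3 in TIBA pins (log2 difference 6.05, SE 0.56, limma adjusted p = 0.00113 for lfs and log2 difference 4.22, SE 0.56, limma adjusted p = 0.0049 for TIBA against WT), and only TIBA replicate 2 kept it under the minimum of 50. Solyc07g006570.2 itself had 6.28 and 35.5 in WT, 738 and 1133 in lfs and 848 and 778 in TIBA pins. The next by that ratio was Solyc02g090350.2, at lower counts, with 0.898 and 1.73 in WT, 37.5 and 76.4 in lfs and 14.9 and 21.5 in TIBA pins. Solyc08g066890.2 had 4.49 and 5.2 in WT, 97.2 and 186 in lfs and 94.3 and 23.9 in TIBA pins, beside the member Solyc08g066880.2 with 16.2 and 16.5 in WT, 525 and 1016 in lfs and 296 and 601 in TIBA pins. In each of these neighbours every leafless value exceeded every WT value. Solyc06g071830.2, beside the member Solyc06g071820.2, had 132 and 139 in WT, 1163 and 824 in lfs and 396 and 530.2 in TIBA pins and was higher in both lfs than both TIBA libraries, whereas the member was lower. These neighbours were picked for description after their values were seen.

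A list of 32 identifiers, linked to published tomato regulators of meristem, leaf and flower development from memory and not checkable against the files, held 1 member. Members made up 0.354% of all genes. The list was chosen with earlier results of these data known, so nothing is read from that 1 member. All 32 identifiers were in the table and 25 were tested. In lfs against WT 6 rose, 7 fell and 12 were not called, with a median of -0.33 log2 units. In TIBA pins against WT 2 rose, 8 fell and 15 were not called, with a median of -0.22 (limma). Over all genes tested, 8.9% were higher and 5.29% lower in lfs, and 10.8% higher and 7.77% lower in TIBA pins. The member on the list was Solyc05g056620.1, unread in WT and called higher in lfs than in TIBA pins in the main fit, though not in every alternative.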

How the data were processed

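RNA was extracted with a column kit and made into TruSeq libraries, per the labels' protocols. TopHat2 2.0.10, HTSeq 0.6.1p1 and DESeq2 1.6.3 are named in the submitters' processing notes; which genome build, annotation, strand setting and counting options they ran with is not given in the sources used here. Deposited were a normalized signal per gene and library (gene counts divided by a size factor, per the file headers and the values) and, for each pair of groups, the authors' log2 fold change with its p-value, raw and adjusted. All 208332 normalized values were whole reads within 0.001 once scaled back, which gave the depths, and these recovered reads (counts) were used for the count-based alternatives. No column of sample values was left unused (0).

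The main test was limma 3.58.1 in R 4.3.3 (trend and robust options) on log2(normalized count + 1), so that fold changes of low genes are understated. All 3 groups entered 1 fit, over 19807 genes with a normalized count of at least 10 in at least 2 libraries, with Benjamini-Hochberg adjustment over all of them. The code was tried on simulated counts with the same spread beyond counting noise for every gene. That trial does not show how the test does on genes as variable as the members. Alternatives used edgeR 4.0.16 (quasi-likelihood) and DESeq2 1.42.0 on the recovered reads, other pseudocounts, filters and scalings, each library left out, and the replicate number as a block. Folds against genes with no WT read are bounds from 3 reads in each WT library. With 1 to 3 WT reads the ratio is of reads pooled within each group and scaled for depth. All other folds are ratios of group means.

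The members and lists were chosen with earlier results of these data known. Genes were named by rule: the 8 largest ratios, up to 5 called in each direction between lfs and TIBA, the 5 highest leafless means, members adjacent in the numbering, the genes nearest the threshold, and members on the list of published identifiers. Named besides were members within 100 numbers of another member (by position), the other called genes, genes with few WT reads, the exceptions in the authors' table and raised neighbours, chosen after their values were seen. Sequences were not used here.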

Additional observations from a re-analysis of the deposited data

How the results depend on the processing

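Members of the rule numbered 417 with a fold of 2 over WT in place of 4 and 43 with a fold of 8, and leaving out 1 library gave 130 to 212 genes (187 without WT replicate 2). With the leafless minimum at 25 or 100 the counts were 153 and 92, and TMM-scaled values gave the same 123 genes. Members with a neighbouring member numbered 6 at a distance of at most 10 and 23 at 100, and 12 to 27 with 1 library left out (24 without WT replicate 2, 27 without lfs replicate 2, 19 without TIBA replicate 2). Members differing between lfs and TIBA pins numbered 33 with DESeq2, 14 with edgeR and TMM, 3 at an adjusted p under 0.01 in limma, and 4 to 16 with 1 library left out (7 without lfs replicate 1, 4 without lfs replicate 2); the cause was not tested. The median lfs minus TIBA difference ran from -0.20 to 0.20 with 1 library left out. All members called against WT fell to 106 in lfs and 114 in TIBA pins without WT replicate 1. Raised neighbours of members numbered 6 to 27 with 1 library left out (6 and 7 without WT replicate 1 and 2 in turn, 12 without lfs replicate 1). Their share exceeded that of all genes tested under each of the 16 alternatives, chosen after seeing the data. The replicate block took the 12 members differing between the leafless groups to 7, of which 6 were among the 12. Same-numbered libraries deviated from their group means with correlations of 0.02 for WT and lfs, -0.05 for WT and TIBA and -0.14 for lfs and TIBA. Whether they shared a batch is not given by the labels and was not tested. A block with only the lfs replicate numbers swapped, and so crossed against both WT and TIBA, called 15. It was added after seeing the data. With 2 libraries a group, small differences between the leafless groups were not detectable.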

Other observations

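The members together took a small part of all normalized counts, 0.0365% and 0.0432% in WT, 0.509% and 0.513% in lfs and 0.65% and 0.655% in TIBA pins. Replicates within a group lay close on this sum although single members were far apart between them. Solyc09g092500.1, for example, had 14.4 and 12.1 in WT, 136 and 165 in lfs and 2569 and 271 in TIBA pins. It was named after its values were seen.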
